A study of Homo sapiens with 6 samples.

Results

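The S100 genes examined here were S100A2, S100A4, S100A6, S100A7, S100A8, S100A9, S100A10, S100A11, S100A14 and S100A16, 10 of the 23459 genes in the count table. They were taken by symbol, through their Entrez IDs, as S100 genes of epithelia that lie in the cluster on chromosome 1, and all 10 passed the low-count filter. Their transcripts were counted by 3′ mRNA-Seq in MCF10A, a non-tumorigenic epithelial line from human breast, after transfection with 20 nM siRNA. The 3 siCtrl libraries come from cells that received a non-targeting siRNA, and the 3 siYAP/TAZ libraries from cells that received siRNA against YAP and TAZ, the coactivators at the end of the Hippo pathway. The sample descriptions mark every library as WT. No other allele or agent separates the groups, and all libraries come from this single line. The question was how the S100 transcripts differ when YAP and TAZ are depleted.

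S100 proteins are small proteins with a pair of EF-hands, the helix-loop-helix motif that binds calcium. Most work as dimers that change shape when calcium binds and then attach to target proteins inside the cell. S100A8 and S100A9 pair to form calprotectin, which sequesters zinc and manganese from microbes and, once released, signals through TLR4 and AGER (RAGE). In keratinised epithelia these genes and S100A7 (psoriasin) are known to be induced by injury and inflammation. S100A10 is unusual in that it has lost calcium binding and sits in a permanent complex with annexin A2 at the membrane.

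Library totals ranged from 3175149 to 4317286 counts, so a count of 0 allows up to 3 counts or 0.695 to 0.945 CPM (counts per 1e+06 counts), for counting error only. The labels conflict for 4 of the 6 libraries. For both replicate 2 libraries the title and the genotype field name the opposite group to the description, and for siCtrl replicate 3 and siYAP/TAZ replicate 1 the title gives the same group but another replicate number. Groups and numbers were taken from the description, which is also the column name. By that grouping YAP1 was at 189 to 210 CPM in siCtrl and 112 to 118 CPM in siYAP/TAZ, so the mean after knockdown was 0.575 of the control mean, and WWTR1, which encodes TAZ, was at 102 to 109 CPM and 59.8 to 70.5 CPM. Both passed in edgeR (adjusted p-values of 0.0138 and 0.0311). The siCtrl replicate 2 library stood apart from the other siCtrl libraries on the first principal component of the genes tested (7.15, against -42.6 and -34.9), next to the siYAP/TAZ libraries (9.77 to 33.7). Epithelial markers were present in every library, with a summed level of 1436 to 1884 CPM in siCtrl and 1272 to 1472 CPM in siYAP/TAZ over 8 genes. Of 6 fibroblast markers, COL1A2, COL3A1 and THY1 had 0 counts in every library. The summed fibroblast counts were 555 to 626 in controls and 556 to 695 after knockdown, of which PDGFRA gave 551 to 683.

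The bases just upstream of the start sites are shown first for the 5 S100 genes whose transcripts differed between the groups once replicates were matched. All 10 genes matched a RefSeq window, and the window chosen ended at the base before the start site of the MANE Select transcript. Each line gives 250 bases from GRCh38.p14, 5′ to 3′ toward the gene, with every TATAAA in capitals:
S100A9, chr1:153357604-153357853, plus strand: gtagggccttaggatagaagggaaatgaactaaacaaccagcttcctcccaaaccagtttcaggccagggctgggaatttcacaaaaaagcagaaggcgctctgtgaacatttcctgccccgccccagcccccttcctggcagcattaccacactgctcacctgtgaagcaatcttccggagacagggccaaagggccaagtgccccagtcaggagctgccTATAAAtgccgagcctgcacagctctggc
S100A8, chr1:153391074-153391323, minus strand: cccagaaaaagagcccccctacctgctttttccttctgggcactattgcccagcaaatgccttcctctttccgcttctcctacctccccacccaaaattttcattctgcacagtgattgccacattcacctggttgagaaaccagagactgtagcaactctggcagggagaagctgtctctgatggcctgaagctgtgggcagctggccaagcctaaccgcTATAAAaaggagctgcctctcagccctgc
S100A7, chr1:153460652-153460901, minus strand: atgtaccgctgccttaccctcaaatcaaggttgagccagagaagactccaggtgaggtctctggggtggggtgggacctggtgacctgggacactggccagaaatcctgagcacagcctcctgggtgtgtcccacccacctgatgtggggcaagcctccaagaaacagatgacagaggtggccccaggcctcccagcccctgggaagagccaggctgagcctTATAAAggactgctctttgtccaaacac
S100A4, chr1:153545807-153546056, minus strand: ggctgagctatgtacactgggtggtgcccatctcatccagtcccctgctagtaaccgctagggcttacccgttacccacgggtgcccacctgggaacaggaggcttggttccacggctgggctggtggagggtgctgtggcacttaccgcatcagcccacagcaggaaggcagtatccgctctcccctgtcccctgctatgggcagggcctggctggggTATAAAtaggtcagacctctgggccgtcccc
S100A10, chr1:151993860-151994109, minus strand: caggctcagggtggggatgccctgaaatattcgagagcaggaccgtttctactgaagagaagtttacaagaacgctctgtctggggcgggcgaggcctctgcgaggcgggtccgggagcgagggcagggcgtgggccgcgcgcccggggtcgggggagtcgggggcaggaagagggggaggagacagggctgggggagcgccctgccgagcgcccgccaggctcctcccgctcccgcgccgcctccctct

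The windows of S100A9, S100A8, S100A7 and S100A4 each held 1 TATAAA, the core of the TATA box that positions the transcription start. It began 29 bases upstream of the start in S100A9 and S100A8, 28 in S100A7 and 31 in S100A4. The windows of S100A10, S100A11, S100A14, S100A16, S100A2 and S100A6 held none on either strand, and of all 35093 RefSeq windows of this length 10.7% held one. Those of S100A6 and S100A14, which did not pass in the fits of all 6 libraries, held TATAAG at a similar distance from the start. TATAAG differs from TATAAA in the last letter alone, and its share of all windows was not counted. TATAAA was chosen after the sequences and the values had been seen. The letters GGAATG, bound by the TEAD partners of YAP and TAZ, were in the S100A16 window alone (11.9% of all windows), and TGANTCA, bound by AP-1, in the S100A2 window alone (6.57%), on either strand. A match describes letters and not a site in use.

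In control cells the S100 transcripts spanned more than 2 orders of magnitude. Because a 3′ library yields about 1 read per transcript whatever its length, CPM was compared between genes without dividing by length. S100A2, a p53-linked S100 of basal epithelial cells, had the highest mean at 2260 ± 513 CPM (SD, n = 3), which placed it 17th of all genes, followed by S100A6 (calcyclin) at 1683 ± 341 CPM. S100A8 (1180 ± 1121 CPM) and S100A16 (1127 ± 186 CPM) came next, and the libraries of each of these neighbours overlapped. S100A14, S100A11 and S100A10 had 496 ± 112, 477 ± 55.4 and 391 ± 73.8 CPM, and S100A9 357 ± 307 CPM, again with overlap between neighbours. S100A4 (metastasin, 10.4 ± 1.26 CPM) and S100A7 (4.33 ± 3.24 CPM) were far lower, and here S100A14 lay below every value of S100A16, S100A4 below every value of S100A9, and S100A7 below every value of S100A4.

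**Figure D1:**
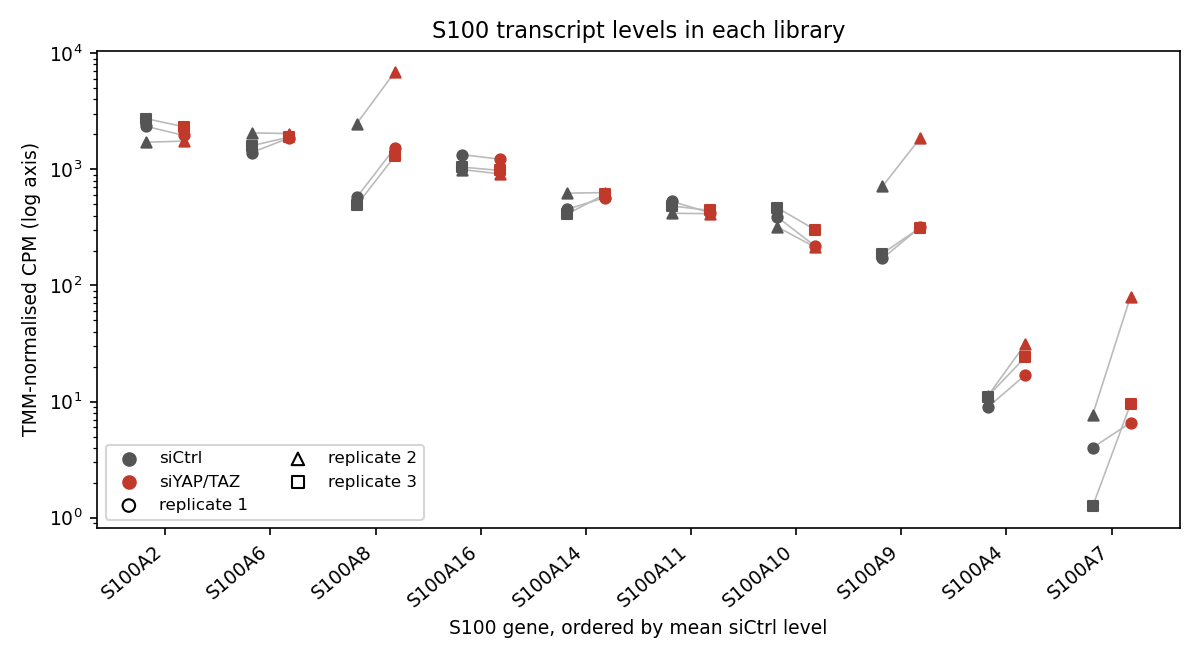
TMM-normalised CPM on a log axis for each of the 10 S100 genes, with siCtrl libraries in grey and siYAP/TAZ libraries in red, the marker shape giving the replicate number and a line joining libraries of the same number. S100A8, S100A9 and S100A7 stand high in replicate 2 of both groups, and every line of S100A8 rises by a similar step.

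Calprotectin transcripts differed widely between replicates. S100A8 had 574, 2473 and 492 CPM in siCtrl replicates 1, 2 and 3, and 1516, 6828 and 1291 CPM in siYAP/TAZ replicates 1, 2 and 3. The groups overlapped, because the replicate 2 library was the highest of each group and siCtrl replicate 2 exceeded siYAP/TAZ replicates 1 and 3. Within each replicate number the order was the same, with siYAP/TAZ 2.64, 2.76 and 2.63 times siCtrl. S100A9 followed S100A8, with 171, 712 and 188 CPM in the control libraries and 318, 1864 and 315 CPM after knockdown, and ratios of 1.86, 2.62 and 1.67 within replicate numbers. Replicate 2 stood above the mean of replicates 1 and 3 by 4.64 times in siCtrl and 4.86 times in siYAP/TAZ for S100A8, and by 3.96 and 5.89 times for S100A9. Of the 12510 genes tested, 50 (0.4%) were at least 2 times higher in replicate 2 of both groups.

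S100A7 encodes psoriasin, an antimicrobial S100 protein of inflamed skin. Its transcript had 14, 25 and 5 counts in siCtrl (4.02, 7.71 and 1.26 CPM) and 29, 243 and 35 counts in siYAP/TAZ (6.57, 80.3 and 9.52 CPM). All values exceeded the floor of 3 counts, but siYAP/TAZ replicate 2 held most of the counts of its group, and siCtrl replicate 2 exceeded siYAP/TAZ replicate 1. The ratios within replicate numbers were 1.63, 10.4 and 7.58. S100A7A, a near-identical neighbour, had 0 counts in 4 libraries, 5 in siYAP/TAZ replicate 2 and 1 in siYAP/TAZ replicate 3, and how reads shared by these copies were assigned is not stated, so the S100A7 counts are uncertain.

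S100A4, which binds non-muscle myosin and is linked to cell motility, had 31, 36 and 44 counts in the control libraries and 75, 95 and 89 after knockdown. In CPM this was 8.90, 11.1 and 11.1 against 17.0, 31.4 and 24.2, and the groups did not overlap. The ratios within replicate numbers were 1.91, 2.83 and 2.19. In GENCODE 44 the S100A4 locus extends over S100A3 on the same strand, and S100A3, with 7 to 20 counts per library, had a log2 fold change of -0.0017.

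S100A10 went the other way. It had 389, 319 and 467 CPM in the control libraries and 218, 214 and 302 CPM after knockdown, with no overlap, and ratios of 0.562, 0.670 and 0.648 within replicate numbers. For its partner ANXA2 the log2 fold change was -0.39, with an SE of 0.21 (adjusted p of 0.379 in edgeR, 0.0606 with the block). The ratio of S100A10 to ANXA2 counts was 0.560, 0.486 and 0.483 in the control libraries and 0.349, 0.486 and 0.429 after knockdown, so the ratio overlapped between the groups.

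With group as the only term in the quasi-likelihood test of edgeR, 0 of the 10 genes reached 0.05 after adjustment, where 1.96% of all genes tested did (0.743% higher and 1.22% lower). Before adjustment 3 did, S100A4 and S100A7 higher and S100A10 lower, against 17.7% of all genes (8.4% higher and 9.27% lower), and the groups did not overlap for 2 (S100A4 and S100A10), against 22.1% of all genes (11% higher and 11.1% lower). The median log2 fold change was 0.24 over the 10 genes and -0.00093 over all genes. S100A4 came closest, with 1.21 (SE 0.27) and an adjusted p of 0.0546, then S100A10 with -0.68 (SE 0.19, 0.103) and S100A7 with 2.89 (SE 0.98, 0.171). The estimates for S100A8 (1.45, SE 0.75, adjusted p of 0.349) and S100A9 (1.22, SE 0.75, 0.432) had wide errors. With group only and without siYAP/TAZ replicate 2 they were 0.25 and -0.17, and the estimate for S100A7 was 0.92.

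Deviations from group means correlated across genes between libraries of the same description number, weakly for replicate 3 (r of 0.42, 0.35 and 0.13 for replicates 1, 2 and 3). By title r was -0.035, -0.098 and 0.30, so for replicate 3 it was higher by title. The pairing was thus judged on these same data, and the blocked fit rests on it. With the replicate number as a block 5 of the 10 genes passed, against 10.1% of all genes tested, with 4 higher (4.66% of all genes) and 1 lower (5.44%). S100A8 rose by 1.42 on the log2 scale (SE 0.10, adjusted p of 6.69e-05 in the blocked edgeR fit), S100A9 by 1.01 (SE 0.14, 0.00164), S100A7 by 2.56 (SE 0.43, 0.00488) and S100A4 by 1.19 (SE 0.22, 0.00722). S100A10 had -0.68 (SE 0.11, 0.00394). For S100A8 the estimate hardly differed between the fits, while its SE was 0.75 without the block and 0.10 with it.

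Both replicate 2 libraries are those whose labels conflict in group, so the counts were repeated without them. Of the 4 libraries kept, siCtrl replicate 3 and siYAP/TAZ replicate 1 still conflict in number, on which the block rests. On the remaining 4 libraries, 4 members passed with group only (S100A4, S100A8 and S100A9 higher, S100A10 lower), against 9.29% of all genes, and 7 passed with the block, against 24% of all genes, S100A6, S100A7 and S100A14 being added as higher, with 1 residual degree of freedom per gene. The log2 fold change of S100A8 was then 1.40, and that of S100A9 0.82, in both fits. Without siCtrl replicate 2 alone, 4 passed with group only, S100A4, S100A8, S100A14 and S100A10, against 12.3% of all genes. When replicate 1 was left out of both groups in the blocked fit, S100A10 had an adjusted p of 0.0531, and without replicate 3 S100A4, S100A7 and S100A10 had 0.0934, 0.0606 and 0.0667, while S100A8 and S100A9 passed in each case. Grouped by title, 0 members passed (0 before adjustment in edgeR), and S100A7, S100A8 and S100A9 had log2 fold changes of -1.82, -0.58 and -0.72. With groups and numbers both by title and the numbers as a block, 0 members passed (0 before adjustment in edgeR), and the same genes had -0.44, 0.65 and 0.21.

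**Figure D2:**
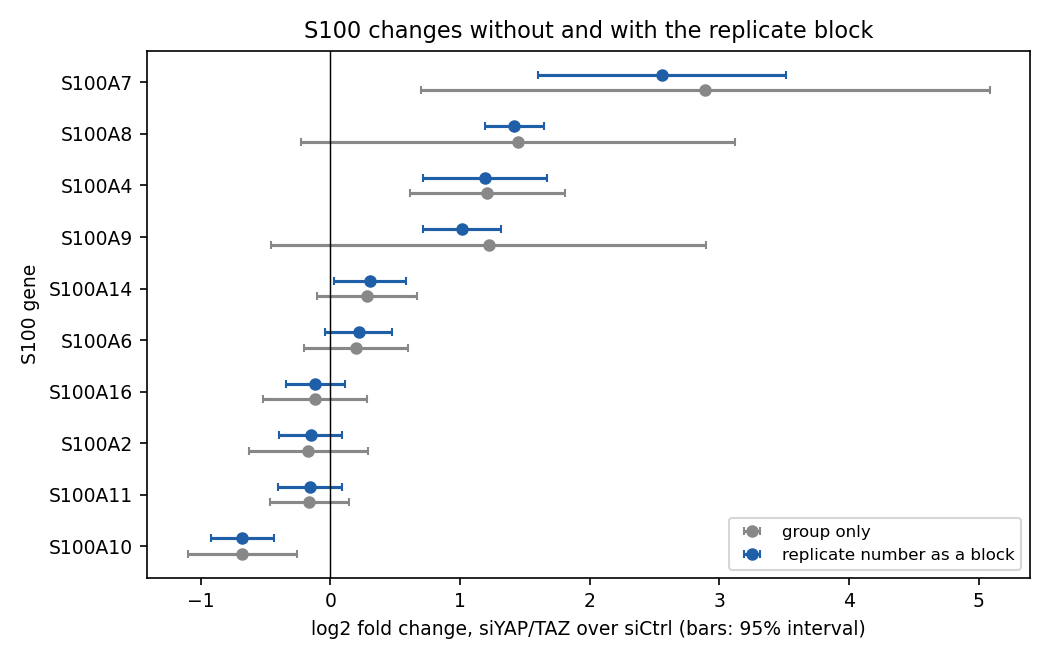
Log2 fold change of siYAP/TAZ over siCtrl for the 10 S100 genes with 95% intervals, from the fit with group only (grey) and with the replicate number as a block (blue). The estimates of S100A8 are 1.45 and 1.42, and the intervals of S100A8 and S100A9 are far narrower with the block.

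The other S100 genes differed less. S100A6, S100A14, S100A2, S100A11 and S100A16 had log2 fold changes between -0.17 and 0.28 with group only, and none passed in either fit of all 6 libraries. S100A6, a calcium sensor of proliferating cells, had 1394, 2060 and 1596 CPM in the control libraries and 1865, 2034 and 1897 CPM after knockdown. S100A14, an epithelial member with impaired calcium binding, had 453, 623 and 412 CPM against 571, 631 and 608 CPM. In both genes siCtrl replicate 2 lay at or just above the siYAP/TAZ level and siCtrl replicates 1 and 3 below it, and their profiles over the 6 libraries were the closest of any pair of members, with a root mean square distance of 0.11 in centred log2 CPM. With the block, the 95% interval of the log2 fold change was -0.039 to 0.47 for S100A6 and 0.029 to 0.58 for S100A14, with adjusted p-values of 0.274 and 0.152 (the intervals are not adjusted for the number of genes).

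S100A2, S100A11 and S100A16 were slightly lower by estimate. S100A11, a partner of annexin A1, had 529, 419 and 484 CPM in the control libraries and 423, 415 and 442 CPM after knockdown. S100A2 had 2340, 1711 and 2729 CPM against 1956, 1750 and 2323 CPM, and S100A16 had 1340, 996 and 1046 CPM against 1224, 914 and 978 CPM. Groups overlapped for all 3 genes. The blocked 95% intervals were -0.39 to 0.088 for S100A2, -0.40 to 0.089 for S100A11 and -0.34 to 0.11 for S100A16, so ratios as low as 0.761, 0.757 and 0.788 lie within the intervals. The sign of S100A16 was positive (0.025) without siCtrl replicate 1.

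The summed share of the 10 genes showed how far S100A8 set the total. They took 0.739%, 0.895% and 0.760% of the counts of siCtrl replicates 1, 2 and 3, and 0.829%, 1.41% and 0.813% of those of the siYAP/TAZ libraries. S100A8 made up 7.98%, 26.5% and 6.62% of these counts in the controls and 18.7%, 46.3% and 15.8% after knockdown. By mean CPM it ranked 39th of all genes in siCtrl and 13th in siYAP/TAZ. The replicate 2 libraries, at 2473 and 6828 CPM, raised both means. S100A2 made up 32.5%, 18.3% and 36.7% in the control libraries and 24.1%, 11.9% and 28.4% after knockdown. S100A8 counts were 3.36, 3.47 and 2.61 times S100A9 counts in the control libraries and 4.77, 3.66 and 4.10 times after knockdown. The groups of this ratio did not overlap, with 3.47 and 3.66 in the replicate 2 libraries close together, and 3 against 3 libraries cannot give an exact permutation p below 0.1.

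**Figure D3:**
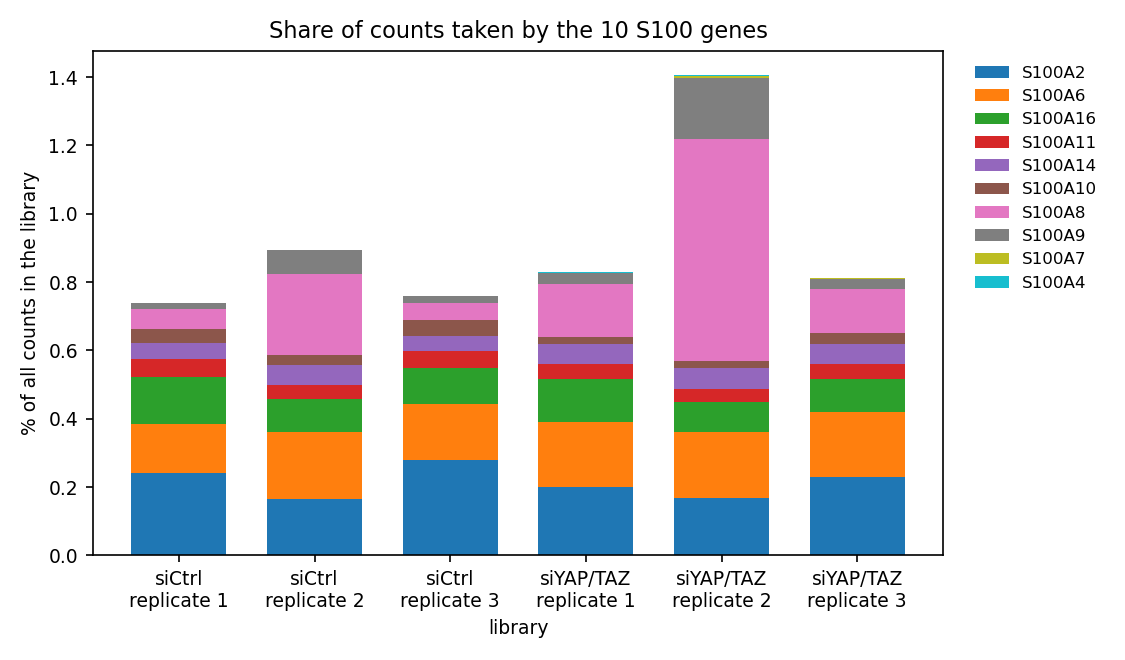
Stacked bars of the percentage of all counts in each of the 6 libraries that fell on each of the 10 S100 genes. The bar of siYAP/TAZ replicate 2 is the tallest at 1.41%, and S100A8 forms the largest part of it.

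Along chromosome 1 (GRCh37 coordinates, the build named for these files), 3 of the 4 genes higher in the blocked fit were near neighbours. S100A9 (153330330 to 153333499, plus strand), S100A8 (153362508 to 153363549, minus strand) and S100A7 (153430220 to 153433127, minus strand) follow each other, with S100A12 and S100A7A between them. S100A12, a further inflammatory S100, had 0, 0 and 4 counts in the control libraries and 1, 13 and 5 after knockdown, too few for the test. S100A4 (153516089 to 153522612, minus strand) lies between S100A6 (153507075 to 153508720) and S100A2 (153533584 to 153540366), neither of which passed. S100A6 overlaps a long noncoding RNA on the opposite strand, as does S100A11 (152004982 to 152020383), and use of strand in counting is not stated, so their counts are uncertain to that extent. S100A16 (153579362 to 153585621) and S100A14 (153586731 to 153589462) close the row, and S100A10 (151955391 to 151966335, minus strand) lies 1364 kb from S100A9, at the far end of the cluster.

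**Figure D4:**
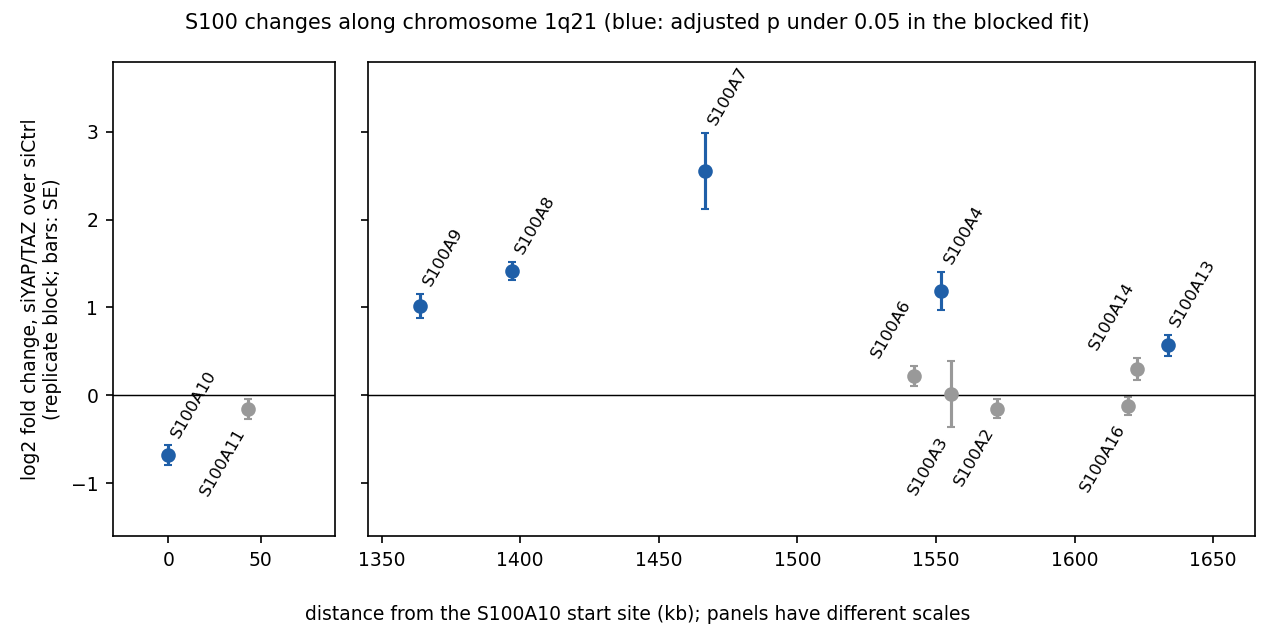
Log2 fold change of siYAP/TAZ over siCtrl with its SE from the blocked fit, against the distance of each start site from that of S100A10 in kb, for the 10 S100 genes and the tested neighbours S100A3 and S100A13, with genes past an adjusted p of 0.05 in blue. S100A9, S100A8 and S100A7 follow each other above 1, S100A4, also above 1, lies between S100A6 and S100A2 near 0, and S100A10 is the lowest at -0.68.

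Genes with the profile most like that of S100A8 were found by the root mean square distance of centred log2 CPM over the 6 libraries, where S100A8 itself varied by 1.28. S100A9 was the nearest at 0.27, followed by IL1R2, a decoy receptor for interleukin-1, at 0.31, the acute-phase gene SAA2 at 0.40, its readthrough SAA2-SAA4 at 0.40 and the Wnt receptor FZD4 at 0.43. Around S100A7, the tested member with the largest fold change, the nearest were IL1R2 (0.53), LTF (lactoferrin, 0.57), S100A8 (0.66), CHI3L2 (0.76) and S100A9 (0.775). These distances rest on 6 libraries, among which replicate 2 was the highest of each group for S100A7, S100A8 and S100A9.

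Among 10 further S100 genes, 3 were tested (S100A3, S100A13 and S100P), and 0 passed with group only in edgeR, with 1 higher before adjustment (8.4% of all genes). That was S100A13, which takes part in the release of FGF1, with 234, 191 and 291 counts in the control libraries and 445, 242 and 429 after knockdown. It differed by 0.58 on the log2 scale (SE 0.17, edgeR adjusted p of 0.114), and the adjusted p was 0.0147 with the block. S100A13 overlaps S100A1 on the opposite strand, which had at most 4 counts, and ENSG00000271853 on the same strand. How reads shared with the latter were assigned is not stated, so the S100A13 counts are uncertain to that extent. S100P had 19, 24 and 2 counts in the control libraries and 76, 19 and 9 after knockdown, or 1.03 on the log2 scale (SE 0.78, edgeR adjusted p of 0.537).

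Of 20 genes for S100 receptors and binding partners, 17 were tested, and 0 passed with group only in edgeR, with 3 before adjustment, all lower (9.27% of all genes). The median log2 fold change was -0.11. With the block 1 fell (5.44% of all genes), ANXA1, the annexin bound by S100A11, with -0.62 (adjusted p of 0.0099). The calprotectin receptor TLR4 had 24, 46 and 33 counts in the control libraries and 32, 40 and 26 after knockdown. AGER had 1, 6 and 2 counts against 10, 9 and 3 and did not pass the filter. Of 14 EF-hand genes outside the S100 family, 12 were tested, with a median of -0.41. Of these, 0 passed with group only, 5 did before adjustment, all lower (9.27% of all genes), and 4 fell with the block (5.44%), CALM2, CALM3, CALU and CETN3, with blocked log2 fold changes of -0.40, -0.60, -0.56 and -0.53. Of 23 neighbours in the epidermal differentiation complex, the block of cornification genes between S100A11 and S100A9, only FLG was tested, with 8, 8 and 10 counts in the control libraries and 27, 10 and 11 after knockdown and an adjusted p of 0.345.

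Myeloid cells are the main producers of calprotectin in the body. The summed counts of 8 myeloid marker genes were 23, 37 and 23 in the control libraries and 31, 29 and 16 after knockdown. PTPRC had 2, 10 and 3 counts in the control libraries and 2, 8 and 3 after knockdown, so it was highest in replicate 2 of both groups, as S100A8 was. ITGAM, with 4, 3 and 3 counts and 8, 3 and 4, was not. CD14, the only one tested and the largest part of the sum, had 15, 23 and 17 counts against 19, 15 and 9 (-0.41 on the log2 scale). LYZ and TYROBP were at 0 throughout, and MPO, FCGR3B and CSF3R had at most 3 counts. The part of such cells in the S100A8 values was not tested. In bulk libraries a change in the share of cells that express a gene and a change in RNA per cell cannot be told apart.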

How the data were processed

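Human MCF10A cells transfected with siCtrl or siYAP/TAZ siRNA were profiled with a 3′ mRNA-Seq kit, with 3 libraries per group. The authors deposited raw counts per Entrez gene without normalisation. The submitters' processing notes name cutadapt 4.2, Bowtie2 2.3.5.1 and hg19. Gene annotation and the use of strand are not given in the sources used here. Groups and replicate numbers came from the description field, which conflicts with the title and genotype in group for 2 libraries and with the title in number alone for 2 more. Whether libraries came from separate cultures is not stated in the labels, so p-values measure the spread between libraries.

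Genes were named through RefSeq (23308 of 23459 IDs matched), and 12510 genes passed edgeR's default low-count filter. Differences were tested with the quasi-likelihood test of edgeR 4.0.16 in R 4.3.3 (TMM scaling, group only, Benjamini-Hochberg adjustment over all genes tested). CPM values are TMM-normalised. The SE was derived from the fold change and its F statistic. DESeq2 1.42.0, other scalings and filters, robust dispersion, the replicate block, grouping by title and leaving out libraries were alternatives. The blocked DESeq2 fit, the blocked fit on library size alone, the blocked fits without a replicate number and the blocked fit by title were added after seeing the data. Deviations from group means correlated across genes between libraries of the same number (r of 0.42, 0.35 and 0.13 for replicates 1, 2 and 3), so the numbers from the description were taken to pair the libraries. By title the values were -0.035, -0.098 and 0.30. Chi-square per degree of freedom between replicates was 5.37 to 17.4, so none was a repeat of another.

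The members and gene lists were chosen with earlier results of these data known. Text names all members, list genes past the threshold in either fit, and the 5 genes nearest in profile to the member with the largest fold change and to that with the highest mean. Models were also run on simulated counts, with the same dispersion for every gene and no replicate effect. That run therefore cannot judge how the block performs on these libraries.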

Additional observations from a re-analysis of the deposited data

How the results depend on the processing

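Over the 21 alternatives tried for each gene, S100A2, S100A4, S100A6, S100A10, S100A11 and S100A14 kept their direction. S100A7 (-1.82), S100A8 (-0.58) and S100A9 (-0.72) reversed when grouped by title, S100A7 (-0.44) also with the titles' numbers as a block, and with 1 library left out S100A9 ranged from -0.17 (siYAP/TAZ replicate 2) to 2.21 and S100A16 from -0.25 to 0.025 (siCtrl replicate 1). The cause was not tested. In the main edgeR fit, with group only, 0 S100 genes passed. Other fits with group only gave 2 with DESeq2 (S100A4 and S100A10, 4.37% of all genes with an adjusted p). They gave 3 without the low-count filter (S100A4, S100A7 and S100A10, 2.9%) and 1 with robust dispersion (S100A4, 2.21%). There were 5 with the replicate block (10.1%) and 4 without both libraries whose labels conflict in group (9.29%). Leaving out 1 library gave 0 to 4, reaching 4 when siCtrl replicate 2 (12.3%) and 1 when siYAP/TAZ replicate 1 (1.35%) was omitted. The blocked fit gave 5 with DESeq2 (6.18%) and 5 on library size alone (10.3%), and 4 (4.81%), 7 (24%) and 2 (1.54%) when replicate 1, 2 or 3 was left out of both groups. Of all genes, 245 passed, and 578 with DESeq2, 556 without the filter, 1263 with the replicate block, 1183 without both libraries that conflict in group, 0 by title in edgeR (222 and 242 higher and lower before adjustment) and 16 (siCtrl replicate 3) to 1579 (siCtrl replicate 2) with 1 library left out, including 18, 71 and 92 when siYAP/TAZ replicate 3, siYAP/TAZ replicate 2 or siCtrl replicate 1 was omitted. In the lists around the S100 genes 33 genes were tested. Of these, 0 passed in the main fit (1.96% of all genes) and 6 in the blocked fit (10.1%). Omitting siCtrl replicate 2 gave 6 of 34 list genes (12.3% of all genes), and omitting siYAP/TAZ replicate 2 gave 1 of 34 (0.553%). Omitting any other single library gave 0 (0.126% to 1.35% of all genes). S100A4 and S100A7 rest on few reads, with 31 to 44 and 5 to 25 counts in the siCtrl libraries.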

Other observations

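A pair of genes for epithelial differentiation, chosen after their values were seen, differed in counts without passing the low-count filter. SPRR1B, a cornified envelope precursor encoded near the S100 genes, had 2, 1 and 1 counts in the control libraries and 41, 6 and 17 after knockdown. CALML3, a calmodulin-like EF-hand protein of epithelia, had 0, 0 and 0 counts in the control libraries and 4, 8 and 4 after knockdown. For SPRR1B and CALML3 the groups did not overlap, where 11% of all genes tested were higher without overlap. That share covers only genes that passed the filter, so it is no direct measure for these genes. FLG was also higher without overlap in CPM, but by little, with 8, 8 and 10 counts in the control libraries and 27, 10 and 11 after knockdown. Whether FLG passed the filter through the siYAP/TAZ libraries alone was not tested, so it is not counted as support. Other differentiation genes in these lists were not higher without overlap. IVL had 2, 0 and 1 counts in the control libraries and 0, 0 and 1 after knockdown. TCHH had 2, 5 and 4 against 5, 1 and 4, and SPRR2D 6, 0 and 1 against 0, 1 and 0. LORICRIN, SPRR3 and CALML5 were at 0 throughout. Among the epithelial markers, 0 of 8 passed with group only in edgeR, against 1.96% of all genes. Before adjustment TP63 was higher (8.4% of all genes) and KRT5 lower (9.27%). With the block in edgeR, KRT5 (-0.46, adjusted p of 0.0230) and EPCAM (-0.53, 0.0364) fell on the log2 scale, against 5.44% of all genes. TP63 (0.59, 0.0379) rose, against 4.66%.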
